A study of Mus musculus with 24 samples.

Results

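Lung alveolar capillaries are lined by a pair of endothelial cell types. Aerocytes are large, thin cells that face the alveolar air and serve gas exchange, and general capillary cells keep the tone of the capillary bed and act as its progenitors after injury. The 8 genes described here are markers of these cells: Car4, Fibin and Emcn are enriched in aerocytes, and Aplnr, Gpihbp1, Kit, Cd93 and Lpl in general capillary cells. Members were chosen by name, through the gene symbol of each Ensembl identifier, and all 8 were found among the 36109 genes of the lung data and the 36595 genes of the retina data. All 8 also passed the filter on low counts in both tissues, along with 16819 lung genes and 19173 retina genes in all. In the retina Gpihbp1 passed it only through the O2 groups.

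The RNA came from 24 mice, 12 lungs and 12 retinas, with 3 mice in each of 4 groups per tissue. WT-RA and WT-O2 were wild-type littermates of the GSDMD-KO mice KO-RA and KO-O2, all on a C57/B6 background, and the knockout is a global one, made by CRISPR as a small deletion in the Gsdmd gene, so that it is not limited to endothelium. Lungs were collected on postnatal day 15 after 85% oxygen (WT-O2, KO-O2) or 21% oxygen, room air (WT-RA, KO-RA), from day 1 to 14, a model of bronchopulmonary dysplasia. Retinas were collected on day 18, after 75% oxygen from day 7 to 12 followed by room air (WT-O2, KO-O2) or after room air throughout (WT-RA, KO-RA), a model of oxygen-induced retinopathy. The retinal O2 groups had therefore been back in room air for days when they were sampled, while the lungs were taken right after the exposure. Both tissues were measured whole, without sorting.

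Among the members, carbonic anhydrase 4 (Car4) is a membrane-bound enzyme that speeds the conversion between carbon dioxide and bicarbonate at the capillary wall. Emcn encodes endomucin, a mucin-like glycoprotein of capillary and venous endothelium, and Fibin is a secreted protein whose role in the capillary is little known. Aplnr is the receptor of the peptides apelin and Apela, Kit is the receptor tyrosine kinase for stem cell factor, and Cd93 is a transmembrane glycoprotein of angiogenic endothelium that binds Mmrn2. Lpl encodes lipoprotein lipase, which releases fatty acids from circulating triglycerides, and Gpihbp1 encodes the endothelial protein that carries the lipase to the capillary lumen and holds it there. In the retina, whose capillaries form a blood-retinal barrier, the same genes mark no known aerocyte or general capillary cell. Their values there describe all cells of the whole retina samples.

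The member genes lie on 6 chromosomes of GRCm38. Car4 is at chr11:84957786-84966044 (forward strand), Emcn at chr3:137341067-137432185 (forward), Gpihbp1 at chr15:75596628-75599481 (forward), Kit at chr5:75574916-75656722 (forward) and Lpl at chr8:68880491-68907448 (forward). Fibin at chr2:110360917-110363183 (reverse), Aplnr at chr2:85136225-85139923 (forward) and Cd93 at chr2:148436640-148443563 (reverse) share a chromosome. No member overlaps another annotated gene there. The coding transcript of Fibin has 1 exon and that of Kit 21.

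RefSeq promoter entries of build GRCm38.p6 were matched for 4 of the 8 members, Car4, Fibin, Emcn and Kit. They are shown because Kit and Fibin fell in the lung under hyperoxia while Car4 and Emcn stayed within 2-fold. Each run holds only bases before both the RefSeq start and the gene model above, 5′ to 3′ on the gene's own strand, and capitals mark a match to 1 of the 4 motifs searched.
Car4, chr11:84957504-84957753, forward strand: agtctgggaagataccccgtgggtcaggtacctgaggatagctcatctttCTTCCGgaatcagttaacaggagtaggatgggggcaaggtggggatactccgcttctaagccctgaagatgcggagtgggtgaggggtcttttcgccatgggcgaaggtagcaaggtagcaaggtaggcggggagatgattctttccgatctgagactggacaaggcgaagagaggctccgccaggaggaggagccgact
Fibin, chr2:110363184-110363243, reverse strand: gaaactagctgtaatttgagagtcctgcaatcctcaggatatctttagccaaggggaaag
Emcn, chr3:137340828-137341066, forward strand: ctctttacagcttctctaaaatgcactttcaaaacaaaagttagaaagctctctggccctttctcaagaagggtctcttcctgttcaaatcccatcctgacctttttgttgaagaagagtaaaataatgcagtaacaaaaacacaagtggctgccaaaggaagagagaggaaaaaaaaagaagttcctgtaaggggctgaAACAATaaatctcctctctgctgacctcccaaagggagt
Kit, chr5:75574737-75574915, forward strand: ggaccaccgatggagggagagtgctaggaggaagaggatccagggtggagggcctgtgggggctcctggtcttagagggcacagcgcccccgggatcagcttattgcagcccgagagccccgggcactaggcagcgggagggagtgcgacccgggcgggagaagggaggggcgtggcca
The motifs were CGGAAG for ETS factors, AACAAT for SOX factors, AGATAA for factors of the Gata family, and TATAAA for the TBP protein, searched on both strands of the 250 bases before each RefSeq start. Car4 held CGGAAG on the reverse strand, 200 to 195 bases before its start, and Emcn held AACAAT on the forward strand, 50 to 45 bases before its start. No match was present in the window of Fibin or in either window of Kit. Of 32851 mouse promoters of this length, 13.6% held the ETS motif, 9.42% the SOX motif, 9.99% the Gata motif and 12.4% the TBP motif. The windows differed in base composition: the Kit window was 70.8% G and C, above 91.7% of all promoters, whereas that of Emcn was 40.8%, above 13.3% of them.

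Totals per library were 28763661 to 29604254 counts in the lung and 24863257 to 29093035 in the retina. Levels are given as CPM (counts per 1000000 counts of the library, scaled with TMM factors). Summed lung epithelial markers were at 21630 to 36200 CPM in the lungs and at 41.17 to 57.69 CPM in the retinas, and summed retinal neuron and glia markers at 39230 to 60090 CPM in the retinas. Gsdmd, the targeted gene, was at 40.6 to 42.3 CPM in the room air WT lungs and 32.1 to 36.4 CPM in the hyperoxic ones. In KO lungs it was at 22.6 to 24.8 CPM in room air and at 11.7 to 16.3 CPM in hyperoxia. It was lower in KO-O2 than WT-O2 lungs (log2 fold change -1.33, SE 0.108, edgeR adjusted p 8.33e-05). By qRT-PCR the paper found Gsdmd barely detectable in KO lungs and raised by hyperoxia in WT lungs. Here the hyperoxia value in WT lungs was a log2 of -0.27 (SE 0.104, edgeR adjusted p 0.0533). Counts outside the deleted bases can remain in a knockout, but where the KO counts lie in the gene was not tested. In the retina Gsdmd was at 0.419 to 5.70 CPM in WT mice and 0.636 to 2.95 in KO mice, and the difference did not pass (adjusted p 0.482 in O2 and 0.346 in room air). Y-linked genes were present in 0 WT-RA lungs, in 1 lung of the WT-O2 group, in 2 lungs of KO-RA and in all 3 lungs of KO-O2. Among retinas they were present in all 3 of each room air group and in 1 of each O2 group, so that sex moves with group in both tissues. A fit with a term for Y-linked expression is among the alternatives.

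In WT-RA lungs the members were measured at 60.5 CPM (Fibin) to 783 CPM (Cd93). Levels are compared between genes as CPM per kilobase of the longest coding transcript. Car4 was highest at 172 ± 7.10 CPM per kilobase (mean ± SD, n = 3), followed by Cd93 at 105 ± 10.8 and Gpihbp1 at 105 ± 12.5, whose ranges overlapped. Emcn at 62.6 ± 1.28 and Aplnr at 61.7 ± 5.48 overlapped as well. Kit stood at 43.6 ± 3.15, and Lpl at 32.8 ± 7.52 and Fibin at 28.9 ± 2.41 overlapped at the end of the order. In WT-O2 lungs the order was Cd93 (167 ± 7.38), Car4 (121 ± 16.4), Emcn (74.3 ± 5.31) and Lpl (46.5 ± 0.854), and then, lower, Gpihbp1 (15.3 ± 2.50), Fibin (8.34 ± 1.52), Aplnr (5.94 ± 1.3) and Kit (4.06 ± 0.336). Only the ranges of Fibin and Aplnr overlapped among neighbours in that order, so Kit moved from the sixth place to the last.

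The first comparison asks what hyperoxia did to these genes in WT lungs. It split the general capillary genes: Kit, Aplnr and Gpihbp1 fell by more than 6-fold, while Cd93 and Lpl were higher at less than 2-fold. Among the aerocyte genes Fibin fell, Car4 was lower and Emcn higher at less than 2-fold. A gene was called changed at an adjusted p under 0.1, a p under 0.05 and a fold of at least 2 in the quasi-likelihood test of edgeR, with p-values adjusted by Benjamini-Hochberg over all genes tested. By that rule 4 of the 8 members fell and 0 rose, where 6.57% of all tested genes fell and 5.04% rose (11.6% in either direction). Without the fold threshold all 8 passed, 5 lower and 3 higher, where 49.2% of all genes did. In bulk tissue fewer cells of a type and less RNA per cell cannot be told apart.

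Kit was at 247, 217 and 221 CPM in the WT-RA lungs and at 19.8, 23.2 and 20.9 CPM in the WT-O2 lungs. All hyperoxic lungs lay far below all room air lungs, with little spread among them. The log2 fold change was -3.42 (SE 0.103, 95% interval -3.64 to -3.20, adjusted p 4.53e-11), the smallest p of the 16819 genes tested. Aplnr, the apelin receptor, was at 205, 235 and 244 CPM in WT-RA and at 26.2, 23.0 and 16.7 CPM in WT-O2. Its groups were as far apart as those of Kit, with a log2 fold change of -3.38 (SE 0.221, adjusted p 4.61e-07). Gpihbp1 was at 197, 159.7 and 163 CPM in WT-RA and 22.8, 30.1 and 23.1 CPM in WT-O2. Here too the groups lay far apart, and the log2 fold change was -2.77 (SE 0.269, adjusted p 1.96e-05). By size of fall, Kit was 52nd, Aplnr 55th and Gpihbp1 107th among all tested genes.

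**Figure D1:**
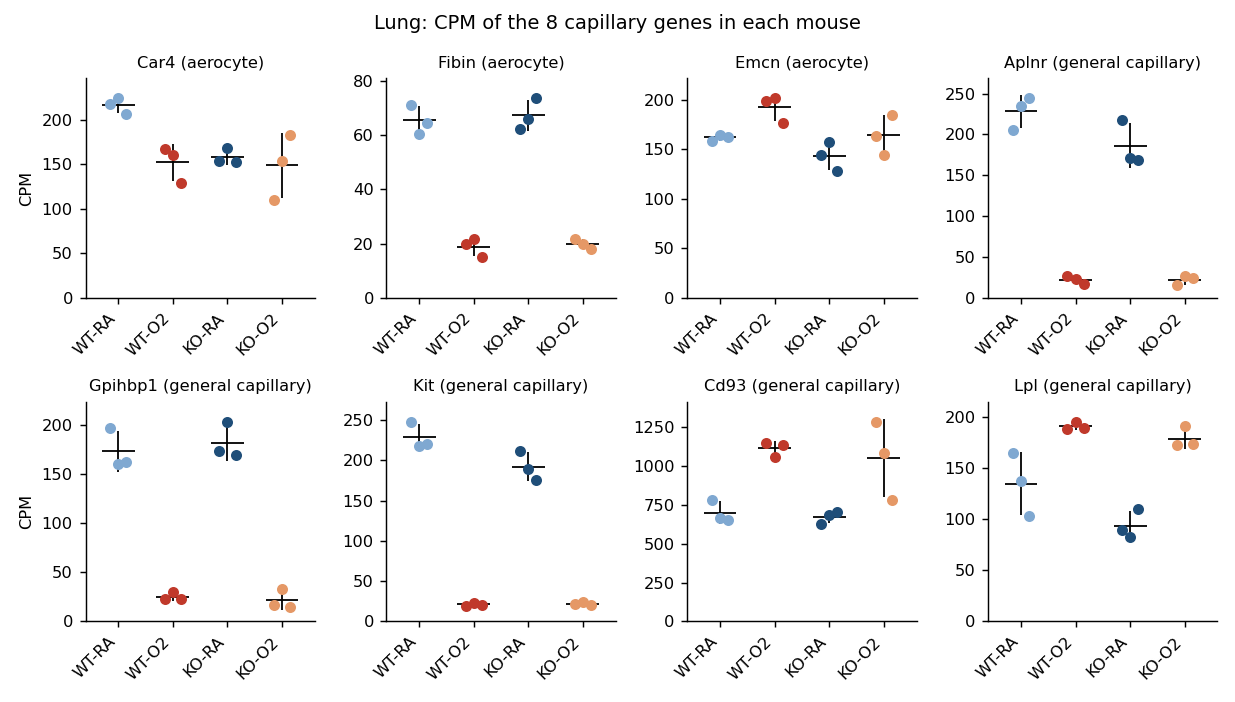
CPM (y axis, from 0, a scale of its own for each gene) of the 8 members in each lung, by group on the x axis, with the mean as a bar and the SD as a line (n = 3 mice). Kit, Aplnr, Gpihbp1 and Fibin lie far lower in both O2 groups, with Kit at 19.8 to 24.4 CPM in the 6 hyperoxic lungs, whereas Cd93 lies higher.

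Fibin was the only aerocyte gene of the 3 that fell by 2-fold or more. It was at 71.4, 60.5 and 64.7 CPM in WT-RA lungs and at 19.8, 21.8 and 15.1 CPM in WT-O2 lungs (log2 fold change -1.79, SE 0.124, adjusted p 7.36e-08). Car4 was at 218, 224 and 206 CPM in WT-RA and 167, 161 and 129 CPM in WT-O2. The groups did not overlap, but the difference was small (log2 fold change -0.51, SE 0.148, adjusted p 0.0142). Emcn was at 158, 165 and 163 CPM in WT-RA and at 199, 201 and 177 CPM in WT-O2, again without overlap, at a log2 fold change of 0.25 (SE 0.0989, adjusted p 0.0572). Cd93, at 783, 664 and 653 CPM in WT-RA and 1148, 1058 and 1137 CPM in WT-O2, was 1.59-fold higher (log2 0.67, SE 0.140, adjusted p 0.00157). Lpl was at 165, 137 and 103 CPM in WT-RA and at 189, 195 and 189.7 CPM in WT-O2 (log2 0.50, SE 0.141, adjusted p 0.0110). The room air lungs were widely spread for Lpl and the hyperoxic lungs close together. Groups did not overlap for any of the 8 members, where this held for 49.8% of all tested genes.

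In GSDMD-KO lungs the same 4 members were called lower under hyperoxia, where 6.03% of tested genes fell, 4.57% rose and 10.6% were called in either direction. Kit was at 212, 189 and 176 CPM in KO-RA and 21.2, 24.4 and 20.9 CPM in KO-O2 (log2 fold change -3.11, SE 0.102, adjusted p 7.82e-11). Aplnr was at 218, 172 and 169 CPM in KO-RA and 15.3, 27.0 and 24.6 CPM in KO-O2 (log2 -3.06, SE 0.218, adjusted p 1.09e-06). Gpihbp1 was at 173, 203 and 169 CPM in KO-RA and 16.5, 32.8 and 14.8 CPM in KO-O2 (log2 -3.09, SE 0.273, adjusted p 1.13e-05). For all of these genes the range of the hyperoxic KO lungs overlapped that of the hyperoxic WT lungs. Fibin was at 62.3, 66.1 and 73.6 CPM in KO-RA and 21.7, 19.7 and 18.1 CPM in KO-O2 (log2 -1.76, SE 0.124, adjusted p 1.17e-07). Without the fold threshold 6 members passed, these 4 and Cd93 and Lpl, where 46.7% of all genes did.

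The other 4 members stayed under 2-fold in KO lungs. Lpl was at 89.2, 82.9 and 109.9 CPM in KO-RA and at 173, 191 and 174 CPM in KO-O2 (log2 0.93, SE 0.142, adjusted p 1.68e-04). Without the third KO-RA lung its log2 fold change was 1.05, past 2-fold (adjusted p 0.000164, with a range of 1.63e-09 to 0.00135 over the alternatives). Cd93 was at 628, 686 and 702 CPM in KO-RA and at 1284, 1085 and 785 CPM in KO-O2, a wide spread in which the third hyperoxic lung lay nearest to room air (log2 0.65, SE 0.140, adjusted p 0.00219). Car4, at 154, 168 and 152 CPM in KO-RA and 110.0, 153 and 183 CPM in KO-O2, overlapped between groups and did not pass (log2 -0.09, 95% interval -0.41 to 0.23, adjusted p 0.675). Emcn, at 145, 157 and 129 CPM in KO-RA and 164, 144 and 185 CPM in KO-O2, did not pass either (log2 0.20, 95% interval -0.02 to 0.41, adjusted p 0.133). Groups did not overlap for the other 6 members, where this held for 52.4% of all tested genes.

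**Figure D2:**
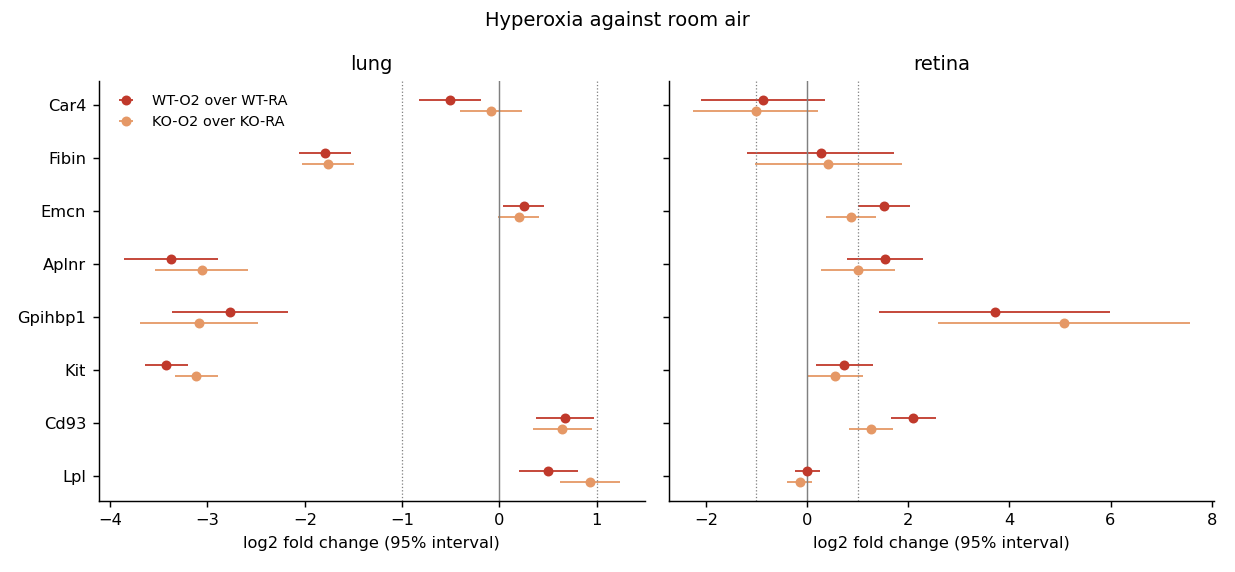
Log2 fold change of hyperoxia over room air (x axis) for each member (y axis) in lung (left) and retina (right), in WT and GSDMD-KO mice, with 95% intervals from the edgeR fit. Dotted lines mark 2-fold, and the x axes differ in scale. Kit, Aplnr and Gpihbp1 lie between -3.42 and -2.77 in the lung and between 0.55 and 5.08 in the retina.

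The 4 genes that fell also fell relative to endothelium as a whole. A pan-endothelial level was computed as the geometric mean of 18 endothelial genes such as Pecam1 and Cdh5, none of them a member. In the lung its median went from 262.7 CPM in room air to 191.8 CPM in hyperoxia in WT mice and from 253.0 to 189.6 CPM in KO mice, and 4 of the 18 genes were called lower in WT lungs and 0 higher (median log2 fold change -0.42, against -0.0069 over all tested genes). Without the fold threshold 11 passed lower and 4 higher. Those named by smallest p were Ramp2 (log2 -1.55), Clec14a (-1.90), Erg (-1.06) and Tie1 (-0.95, under 2-fold). Relative to that level Kit was lower by a log2 difference of -2.92 in WT and -2.67 in KO lungs, Aplnr by -2.90 and -2.65, Gpihbp1 by -2.28 and -2.73, and Fibin by -1.31 and -1.32. In contrast Cd93 was higher by 1.14 and 1.03, Lpl by 1.00 and 1.35 and Emcn by 0.71 and 0.61, each without overlap between groups. For Car4 the groups overlapped, with a difference of -0.04 in WT lungs and of 0.30 in KO lungs, where the hyperoxic mice were widely spread (SD 0.389). These relative values are descriptions on the log2(CPM + 0.5) scale and were not tested.

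**Figure D3:**
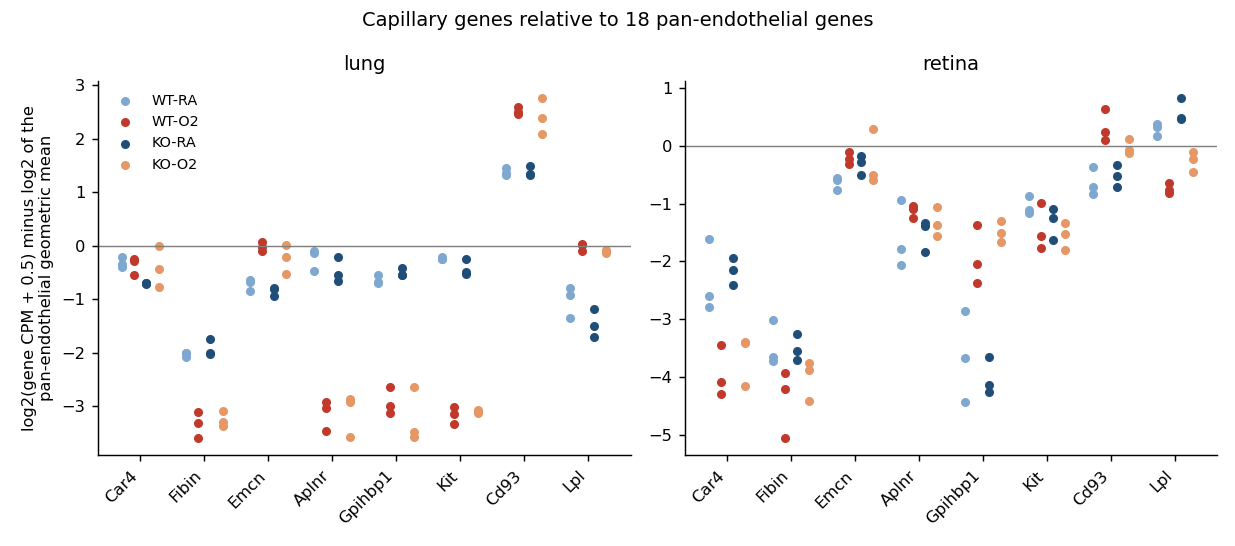
Log2(CPM + 0.5) of each member minus log2 of the geometric mean of 18 pan-endothelial genes (y axis) in each lung (left) and each retina (right), 3 points per group and gene. In the lung Kit, Aplnr and Gpihbp1 lie at -2.65 or lower in every hyperoxic mouse and at -0.70 or higher in every room air mouse.

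Other genes listed for general capillary cells fell as well. Of 6 such genes, 5 were called lower in WT lungs (6.57% of all tested genes) and 5 in KO lungs (6.03%). Their median log2 fold change in WT was -1.92. All these lists were chosen with earlier results of these data known, so they are not independent support. Glp1r, the receptor of glucagon-like peptide 1, went from 199 to 248.9 CPM in WT-RA lungs to 8.44 to 11.2 CPM in WT-O2 lungs (log2 -4.50, SE 0.141, adjusted p 4.53e-11). Tek, the angiopoietin receptor, fell by a log2 of -2.47 (SE 0.120), Hilpda, a lipid droplet protein, by -1.90 (SE 0.133), and Ptprb, a phosphatase that acts on Tek, by -1.94 (SE 0.205). Plvap, the protein of endothelial diaphragms, fell by -1.07 (SE 0.133). Of 7 other aerocyte genes, 1 rose and 2 fell in WT lungs. Apln, the gene of apelin, rose from 85.5 to 102 CPM in WT-RA to 411 to 523 CPM in WT-O2 (log2 2.38, SE 0.159, adjusted p 1.06e-07). Ednrb, an endothelin receptor, fell (log2 -2.004, SE 0.137), as did the low-count gene Rprml (log2 -2.72, SE 0.531). Kdr, a receptor of VEGF, had a log2 fold change of 0.17 in WT (adjusted p 0.249) and 0.82 in KO lungs (adjusted p 6.00e-05). Its interaction of genotype and hyperoxia did not pass (log2 0.65, edgeR adjusted p 0.389). The vessel lists differed among themselves: of 8 arterial genes 5 fell and 1 rose, and of 6 tested venous genes 2 fell and 1 rose.

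Of 6 ligands and partners of the members, 3 rose in WT lungs and 0 fell. No ligand gene of Aplnr or Kit was called lower with its receptor, while the 3 listed partners of Cd93 were higher, as Cd93 was. While Aplnr fell, its ligand gene Apln rose as given above and its second ligand gene, Apela, was near 0.4 CPM in both groups (0.412 ± 0.0662 and 0.364 ± 0.0890, n = 3 each). Kitl, the ligand of Kit, was at 223 to 301 CPM in WT-RA and 226 to 256 CPM in WT-O2 (log2 -0.12, SE 0.125, adjusted p 0.463). Mmrn2, a matrix ligand of Cd93, rose from 44.5 to 47.7 CPM to 135 to 190.2 CPM (log2 1.82, SE 0.116, adjusted p 3.40e-08), and Igfbp7, another Cd93 ligand, was higher at under 2-fold (log2 0.71, SE 0.0845). C1qa, a complement chain named as a partner of the receptor, rose by a log2 of 1.119 (SE 0.129).

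Lipoprotein lipase and its endothelial carrier went apart, since Lpl was higher and Gpihbp1 lower in the hyperoxic lungs. Of 13 tested genes of lipase control and capillary lipid uptake, 2 fell and 0 rose in WT and in KO lungs. Lipg, the endothelial lipase, fell from 60.3 to 101 CPM to 7.43 to 10.7 CPM (log2 -3.10, SE 0.192, adjusted p 1.05e-07). The fatty acid transporter gene Cd36 fell from 482 to 742 CPM to 179.6 to 218 CPM (log2 -1.66, SE 0.138, adjusted p 4.58e-07). Lmf1, needed for folding of the lipase, had a log2 fold change of 0.12 (adjusted p 0.371), and the lipase inhibitor gene Angptl4 one of -0.14 in WT (adjusted p 0.253) and -0.59 in KO lungs (adjusted p 2.30e-04). The interaction of Angptl4 did not pass (log2 -0.45, edgeR adjusted p 0.499). Beside Car4, 6 of 12 tested carbonic anhydrase genes fell and 1 rose in WT lungs, with Car14 lowest (log2 -3.59, SE 0.198) and Car13 the one that rose (1.72, SE 0.195).

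Several members are also made by cells other than endothelium. Kit is a defining receptor of mast cells, and 6 of 7 tested mast cell genes rose in WT hyperoxic lungs, opposite to Kit, with Tpsb2 at 1.03 to 2.02 CPM in WT-RA and 22.8 to 36.9 CPM in WT-O2. The mast cell list summed to 59.96 to 67.12 CPM in WT-RA and 87.55 to 120.5 CPM in WT-O2, and Hdc, which is not limited to mast cells, held most of the former sum. Lpl is made by alveolar macrophages, whose list summed to 432.9 to 830.6 CPM in WT room air lungs and 216.0 to 398.6 CPM in WT hyperoxic lungs. Most of the room air sum was Chil3 (430.6 ± 186.6 CPM in WT-RA and 74.2 ± 80.97 in WT-O2, n = 3 each), and the list was divided: 5 of its 8 genes fell in WT lungs, and 3 were higher, as Lpl was. Marco rose (log2 1.30, adjusted p 7.22e-04), and Mrc1 (log2 0.74) and Plet1 (log2 0.78) were higher at under 2-fold. In KO lungs these sums were 183.4 to 201.1 CPM in room air and 167.6 to 258.9 CPM in hyperoxia. The broader macrophage list summed to 416.4 to 458.6 CPM in WT-RA and 505.9 to 536.7 CPM in WT-O2. The fibroblast list, another source of Lpl in lung, summed to 3044 to 4134 CPM in WT-RA and 4310 to 4823 CPM in WT-O2. Col1a1 (log2 0.62) and Col1a2 (log2 0.45) made up most of that sum, and Dcn rose (log2 1.502), whereas Pdgfra fell (log2 -2.20) and Tcf21 was lower at under 2-fold (log2 -0.76). Cardiac muscle and adipocyte lists, which could bring Lpl from attached tissue, were at 90.29 to 258.9 and 2.133 to 19.28 CPM in WT-RA and at 131.6 to 153.5 and 6.331 to 9.955 CPM in WT-O2. The part of these cells in the Lpl values was not tested.

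The second question is whether loss of GSDMD altered these genes. In the lung 0 of 8 members were called in KO-O2 against WT-O2, where 0.0238% of tested genes were, 0 in KO-RA against WT-RA, where 0.137% were, and 0 in the interaction of genotype and hyperoxia, where 0.00595% were. DESeq2 also called 0 members in each. At an unadjusted p under 0.05 stood 1 member in KO-O2 against WT-O2 (6.21% of all genes), 3 in KO-RA against WT-RA (10.5%) and 2 in the interaction (6.72%). Emcn was the one in O2, lower in KO-O2 than WT-O2 (log2 -0.23, 95% interval -0.44 to -0.02, p 0.0370 and adjusted p 0.774 by edgeR). Under hyperoxia the intervals for Kit ran from -0.15 to 0.27, for Aplnr from -0.44 to 0.49, for Gpihbp1 from -0.83 to 0.34 and for Fibin from -0.20 to 0.34, which leave out a 2-fold difference between the genotypes. Groups overlapped for all 8 members, where 12.2% of all genes did not overlap.

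In room air Lpl, Car4 and Kit were the members nearest to a genotype difference. Lpl had 89.2, 82.9 and 109.9 CPM in KO-RA and 165, 137 and 103 CPM in WT-RA (log2 -0.52, SE 0.141, edgeR adjusted p 0.169). The groups overlapped by 1 mouse, and without the third WT-RA lung the adjusted p was 0.00754, the lowest of a range up to 0.513 over the alternatives, still under 2-fold. In the same comparison all 8 alveolar macrophage genes had a log2 below 0 (median -0.77), as had all 8 genes of the broader macrophage list (median -0.39). Of each list 0 were called by edgeR and 7 had an unadjusted p under 0.05, where 10.5% of all genes did. The part of these cells in the Lpl value was not tested. Car4 was lower in KO-RA at 154, 168 and 152 CPM, against 218, 224 and 206 CPM in WT-RA (log2 -0.45, SE 0.148, edgeR adjusted p 0.269), and Kit was at 212, 189 and 176 CPM against 247, 217 and 221 CPM (log2 -0.25, SE 0.0924, adjusted p 0.341). Groups did not overlap for Car4, Kit and Emcn in room air, where this held for 15.2% of all genes. The interaction values, which set the hyperoxia response of KO against that of WT, were 0.31 for Kit (95% interval 0.02 to 0.60, edgeR adjusted p 0.711) and 0.43 for Lpl (95% interval 0.000266 to 0.86, adjusted p 0.743).

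**Figure D4:**
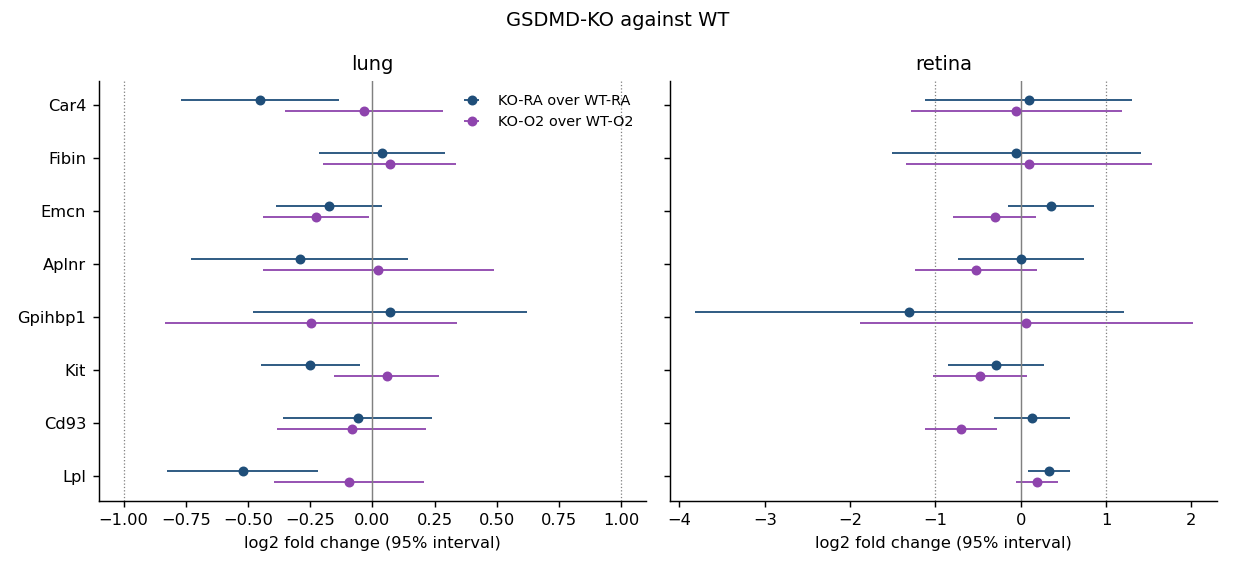
Log2 fold change of GSDMD-KO over WT (x axis) for each member (y axis) in lung (left) and retina (right), in room air and in hyperoxia, with 95% intervals from the edgeR fit. Dotted lines mark 2-fold, and the x axes differ in scale. In the lung every interval lies inside 2-fold, whereas in the retina those of Car4, Fibin and Gpihbp1 are wide.

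In the retina the members were far less abundant. In WT-RA retinas the order per kilobase was Lpl (2.98 ± 0.302 CPM per kilobase), Emcn (2.41 ± 0.431), Car4 (1.38 ± 0.920), Cd93 (0.943 ± 0.241), Kit (0.871 ± 0.172), Aplnr (0.867 ± 0.498), Gpihbp1 (0.254 ± 0.327) and Fibin (0.199 ± 0.0757), with n = 3 each. Each range overlapped the next except for Lpl and Emcn. In WT-O2 retinas Emcn came first (6.93 ± 0.515), then Cd93 (4.03 ± 0.945) and Gpihbp1 (3.30 ± 1.61), whose ranges overlapped.

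Hyperoxia followed by room air raised several of these genes in the retina, the opposite direction to the lung for Aplnr and Gpihbp1. In WT retinas 4 of 8 members were called higher (Cd93, Emcn, Aplnr and Gpihbp1) and 0 lower, where 1.77% of tested genes were called higher, 0.266% lower and 2.04% in either direction. Without the fold threshold the count was the same, where 5.16% of all genes passed. Cd93 and Emcn were called under all 17 alternatives, Aplnr under 12 and Gpihbp1 under 5 of them. Since Gpihbp1 passed the filter on low counts only through the O2 groups, a rise was the only change that could be called for it.

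Cd93 was at 5.60, 5.15 and 8.14 CPM in WT-RA and at 27.1, 33.2 and 20.6 CPM in WT-O2 retinas. The groups were well apart, with a log2 fold change of 2.10 (SE 0.203, edgeR adjusted p 0.00104), the seventh smallest p of all 19173 tested genes. Emcn was at 6.92, 4.96 and 6.85 CPM in WT-RA and at 19.4, 16.7 and 17.7 CPM in WT-O2 (log2 1.52, SE 0.231, adjusted p 0.00712). Aplnr was at 2.64, 1.72 and 5.27 CPM in WT-RA and 10.4, 8.54 and 9.02 CPM in WT-O2. Its room air retinas were widely spread, and the log2 fold change was 1.54 (SE 0.339, adjusted p 0.0390, with a range of 0.00115 to 0.149 over the alternatives). Gpihbp1 was nearly silent in room air, at 0, 0.229 and 1.03 CPM, and was at 8.50, 3.65 and 4.22 CPM in WT-O2. Those room air values rest on 0, 6 and 24 counts, so the log2 fold change of 3.71 (SE 1.03, adjusted p 0.0924, range 0.00554 to 0.250) is loosely set.

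Kit was at 4.32, 3.81 and 5.57 CPM in WT-RA and 6.31, 10.4 and 6.16 CPM in WT-O2, without overlap, and did not pass (log2 0.74, SE 0.255, adjusted p 0.161). Lpl was level at 13.6, 11.2 and 12.0 CPM in WT-RA and 12.7, 12.2 and 12.0 CPM in WT-O2 (log2 0.00, 95% interval -0.25 to 0.25, adjusted p 0.999), which leaves out a change of 2-fold. Car4 was at 3.04, 0.839 and 1.33 CPM in WT-RA and 1.62, 0.593 and 0.647 CPM in WT-O2 (log2 -0.87, 95% interval -2.10 to 0.36, adjusted p 0.467). Fibin was at 0.192 to 0.783 CPM over the 6 WT retinas, from 5 to 23 counts. Its interval does not leave out a 2-fold change in either direction (log2 0.27, 95% interval -1.19 to 1.73). Groups did not overlap for 5 of the 8 members, the called ones and Kit, where this held for 24.0% of all genes.

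In KO retinas 2 of 8 members were called higher, Gpihbp1 and Cd93, and 0 lower, where 1.64% of tested genes were called higher, 0.553% lower and 2.19% in either direction. Gpihbp1 was at 0, 0.370 and 0.119 CPM in KO-RA (0, 11 and 3 counts) and at 6.45, 5.23 and 5.46 CPM in KO-O2 (log2 5.08, SE 1.12, edgeR adjusted p 0.0367), again a loosely set size. As in WT retinas, only a rise could be called for Gpihbp1. Cd93 was at 7.23, 7.23 and 6.20 CPM in KO-RA and 18.1, 16.2 and 15.6 CPM in KO-O2 (log2 1.27, SE 0.199, adjusted p 0.00843). Emcn was at 7.47, 9.25 and 7.19 CPM in KO-RA and at 20.5, 11.5 and 11.5 CPM in KO-O2, where 1 retina lay far above the other two (log2 0.86, SE 0.227, adjusted p 0.0599, under 2-fold). Aplnr, at 3.35, 3.73 and 2.54 CPM in KO-RA and 5.31, 6.53 and 7.63 CPM in KO-O2, did not pass (log2 1.01, SE 0.335, adjusted p 0.118). Kit, with 4.06, 4.14 and 3.02 CPM against 4.37, 6.67 and 5.39 CPM, did not pass either (log2 0.55, SE 0.255, adjusted p 0.255). Lpl (log2 -0.14), Car4 (-1.01) and Fibin (0.42) had adjusted p of 0.520, 0.344 and 0.784. Groups did not overlap for 6 of the 8 members, all but Fibin and Lpl, where this held for 26.2% of all genes. Leaving out the third KO-RA retina left Cd93 as the 1 member called.

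**Figure D5:**
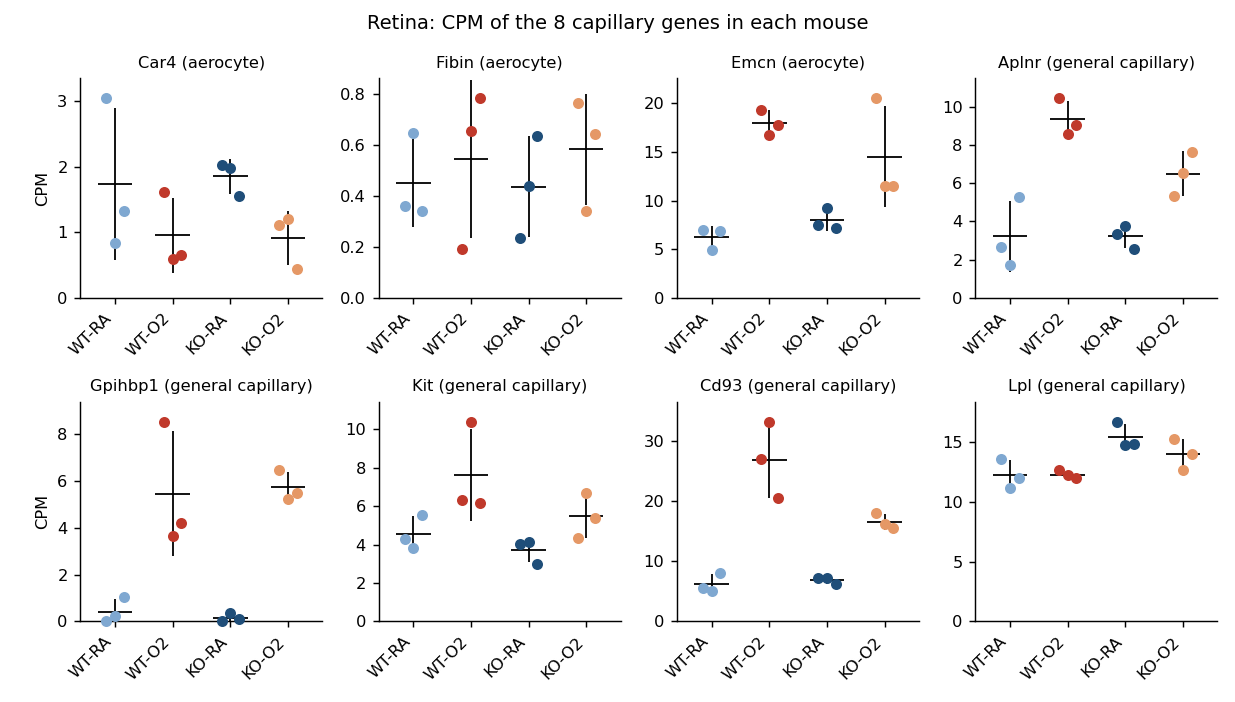
CPM (y axis, from 0, a scale of its own for each gene) of the 8 members in each retina, by group on the x axis, with the mean as a bar and the SD as a line (n = 3 mice). Cd93, Emcn and Gpihbp1 lie higher in the O2 groups, and Gpihbp1 is at or near 0 in room air, while Lpl stays between 11.2 and 16.7 CPM.

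Endothelial genes as a whole were also higher in these retinas. The pan-endothelial level had a median of 10.8 CPM in room air and 21.5 CPM after hyperoxia in WT retinas, against 10.9 and 17.03 CPM in KO retinas, and 12 of its 18 genes were called higher in WT and 4 in KO retinas. Without the fold threshold 13 of the 18 passed as higher in each genotype, and the median log2 value was 1.16 in WT mice and 0.82 in KO mice. Ecscr went from 1.79 to 3.90 CPM in WT-RA to 18.6 to 27.0 CPM in WT-O2 (log2 2.83, SE 0.268), and Pecam1 had a log2 fold change of 1.24 (SE 0.146). Relative to this level Cd93 was higher by a log2 difference of 0.97 in WT and 0.49 in KO retinas, without overlap. Gpihbp1 was higher too, without overlap, but with so few room air counts the size depends on the pseudocount of 0.5 and is not given. Emcn was higher by 0.42 in WT without overlap and by 0.06 in KO with overlap. Aplnr (0.47 and 0.19) and Kit (-0.39 and -0.23) overlapped between groups in both genotypes. Lpl was lower relative to it by -1.04 and -0.86, without overlap. Car4 and Fibin also lay lower without overlap, at levels where the pseudocount bears on the size. Pericyte genes moved too: all 6 passed the adjusted p in WT retinas, 1 of them, Rgs5, past 2-fold (log2 1.51, SE 0.180). Of 6 proliferation genes 4 rose in WT retinas and 1, Mki67, in KO retinas (median log2 fold change 2.52 and 1.01), with Mki67 at 0.0381 to 0.343 CPM in WT-RA and 1.34 to 2.69 CPM in WT-O2. Macrophage and microglia genes were higher too, with all 7 tested genes above 0 in each genotype. Their median log2 fold change was 0.95 in WT (1 called higher) and 1.20 in KO retinas (2 called higher). Melanocyte and pigment epithelium genes summed to 36.52 to 141.3 CPM in WT-RA and 30.97 to 41.44 CPM in WT-O2 retinas. In KO retinas they summed to 74.35 to 438.4 CPM in room air and 19.69 to 65.1 CPM in the O2 group. The part of cell numbers and of attached tissue in the member values was not tested.

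Of the 6 ligands and partners, 4 rose in WT retinas and 3 in KO retinas. Apln rose in both genotypes, from 3.70 to 8.10 CPM in WT-RA to 46.9 to 80.0 CPM in WT-O2 (log2 3.44, SE 0.282, edgeR adjusted p 0.000729) and by a log2 of 2.97 in KO (SE 0.278, adjusted p 0.00115). C1qa (log2 1.10, SE 0.214, adjusted p 0.0242), Mmrn2 (log2 1.89, SE 0.422, adjusted p 0.0411) and Igfbp7 (log2 1.196, SE 0.311, adjusted p 0.0747) rose in WT retinas. Kitl had a log2 fold change of 0.03 (adjusted p 0.967) and Apela one of -0.15 (adjusted p 0.537). The other general capillary genes of the lung were not called in WT retinas (0 of 5 tested by edgeR, 2 at an unadjusted p under 0.05), and Plvap was called in KO (log2 1.03, SE 0.190, adjusted p 0.0164). Mast cell genes were nearly absent from the retina, where the list summed to 1.51 to 3.74 CPM, and only Hdc passed the filter.

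Genotype gave no called member in the retina: 0 of 8 in KO-O2 against WT-O2 (0.292% of tested genes), 0 of 8 in KO-RA against WT-RA (0.00522%) and 0 of 8 in the interaction (0.00522%), by edgeR and by DESeq2. At an unadjusted p under 0.05 stood 1 member in each, where 12.6%, 12.7% and 10.6% of all genes did. Cd93 was lower in KO-O2 than in WT-O2 (log2 -0.70, 95% interval -1.12 to -0.27, p 0.00391 and adjusted p 0.151 by edgeR), and its groups, 15.6 to 18.1 CPM and 20.6 to 33.2 CPM, did not overlap. In the same comparison 16 of the 18 pan-endothelial genes had a log2 below 0 (median -0.35, 6 at an unadjusted p under 0.05 and 0 called), as had all 6 proliferation genes (median -1.40, 0 called by edgeR, 4 at an unadjusted p under 0.05). Of 6 tested erythroid genes 4 were called lower (median -1.58), and that list summed to 983.3 to 1552 CPM in WT-O2 and 370.7 to 429.9 CPM in KO-O2. The part of these lists in the Cd93 value was not tested. The interaction value of Cd93 was -0.83 (95% interval -1.44 to -0.22, p 0.0122, edgeR adjusted p 0.316). Lpl was at 14.8 to 16.7 CPM in KO-RA and 11.2 to 13.6 CPM in WT-RA (log2 0.33, SE 0.112, edgeR adjusted p 0.287). Groups did not overlap for Cd93 and Aplnr in O2 (19.9% of all genes) and for Lpl and Emcn in room air (17.7%). For Gpihbp1 the interval in O2 ran from -1.88 to 2.02, which does not leave out a 2-fold difference in either direction.

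The genes whose pattern was most like each member were sought among tested genes averaging 1 CPM or more, by Pearson's r of log2(CPM + 0.5) over the 12 libraries of a tissue. These libraries share their exposure groups, which carry much of each r, so r within the 6 room air and the 6 hyperoxic libraries is given beside it as a description. In the lung Glp1r (r 0.998 over 12, 0.945 in room air and 0.667 in hyperoxia) and Fam162b (0.998, 0.548 and 0.816) were nearest to Kit. Cd1d1 (0.993, 0.918 and 0.760) and Pllp (0.993, 0.464 and 0.818) were nearest to Aplnr, and Arl4d (0.991, 0.873 and 0.895) and Rasip1 (0.990, 0.455 and 0.940) to Gpihbp1. Fibin was closest to Ecm2 (0.992, 0.240 and 0.830) and Acoxl (0.991, -0.324 and 0.835), which did not follow it in room air alone. Icmt (0.982, 0.936 and 0.917) and Dpysl3 (0.971, 0.297 and 0.982) came next to Cd93. For Lpl they were Mrc1 (0.970, 0.98 and 0.745), a macrophage receptor, and Cyp2j6 (0.967, 0.944 and 0.0357), the latter without likeness among the hyperoxic lungs. Gbp5 (0.903, 0.931 and 0.788) and Aldh3b1 (0.897, 0.903 and 0.813) were nearest to Car4, and Capsl (0.881, 0.787 and 0.931) and Nudt17 (0.855, 0.626 and 0.892) to Emcn.

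In the retina the genes nearest to the members that rose were a mixed set. Cdh5, Pecam1 and Erg are endothelial genes and Rgs5 a pericyte gene, but Lcp1, nearest to Cd93, and others are on neither list. Lcp1 (0.989 over 12, 0.967 in room air and 0.912 in hyperoxia) and Cdh5 (0.984, 0.959 and 0.950) were nearest to Cd93, and Rgs5 (0.971, 0.868 and 0.891) and Pecam1 (0.965, 0.700 and 0.886) to Emcn. For Aplnr they were Cdh5 (0.953, 0.915 and 0.673) and Ifitm3 (0.952, 0.780 and 0.872). Gpihbp1 was closest to Erg (0.973, 0.777 and 0.507) and Ndufa4l2 (0.963, 0.715 and -0.0904), a likeness that was loose or absent within hyperoxia. Nkd2 (0.950, 0.908 and 0.914) and Ptgfr (0.941, 0.705 and 0.957) were nearest to Kit, and Casc4 (0.940, 0.967 and 0.900) and Luzp2 (0.935, 0.989 and 0.932) to Lpl. For Car4 they were Ngrn (0.898, 0.859 and 0.855) and Stmn2 (0.881, 0.965 and 0.560), and for Fibin Gm45739 (0.899, 0.992 and 0.856) and Zdhhc19 (0.874, 0.714 and 0.932).

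Among the members themselves, Kit, Aplnr, Gpihbp1 and Fibin followed each other over the 12 lungs, with r between 0.972 (Fibin and Gpihbp1) and 0.990 (Aplnr and Kit). Within 1 exposure the likeness was looser: for Aplnr and Kit r was 0.712 over the 6 room air lungs and 0.264 over the 6 hyperoxic lungs, and for Aplnr and Gpihbp1 -0.580 and 0.398. In the retina Cd93 followed Aplnr (r 0.925 over 12 libraries, 0.955 in room air and 0.611 in hyperoxia) and Emcn (0.923, 0.639 and 0.552). With Gpihbp1 its r was 0.906 over the 12 libraries, but 0.570 in room air and -0.168 in hyperoxia.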

How the data were processed

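RNA was extracted from 12 lungs and 12 retinas, and BGI sequenced paired-end libraries. The authors ran FastQC and quantified mouse transcripts by kallisto, and tximport gave gene totals (its settings are not given in the sources used here). Each tissue has 1 deposited table of expected counts, that is estimated counts left unscaled for depth. Of nonzero values, 55.8% in the lung but 2.2% in the retina were within 0.01 of a whole number, so retina counts may have been scaled within a library, and the tissues were never tested against each other. The labels name build mm10 and the supplementary methods a later one; identifiers were matched to GRCm38 symbols (35816 of 36109 and 35968 of 36595), and coordinates are those of GRCm38.

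Groups came from the labelled genotype and exposure. Values were rounded to whole counts. The tests used edgeR 4.0.16 in R 4.3.3, with filterByExpr, TMM factors (0.954 to 1.02 in the lung, 0.863 to 1.1 in the retina), and a robust quasi-likelihood fit of all 12 libraries of a tissue with a term per group. The 5 contrasts per tissue were the effect of hyperoxia within each genotype, the effect of genotype within each exposure, and their interaction. P-values were adjusted by Benjamini-Hochberg over all tested genes. A call needed an adjusted p under 0.1, a p under 0.05 and a fold of at least 2 (none for the interaction). SE was derived from the log2 fold change and the F statistic. The fit was tested on simulated counts that had the same spread for all genes and changes only in abundant genes. That test says nothing on retina genes with few counts. Alternatives were DESeq2 1.42.0, RLE factors, no filter, only the groups compared, a term for Y-linked expression (present above 20 CPM), leaving out each library, no fold threshold, and CPM without TMM factors.

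The members, the 23 other gene lists and the tests were chosen with earlier results of these data known. Named beside the members are at most 4 genes of a list by smallest p under hyperoxia in WT, known ligands and partners, and the 2 genes most like each member. Genes named outside this rule were chosen after their values were seen.

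For abundant genes precision is set by the differences among mice within groups, estimated over all 12 libraries of a tissue. An SE therefore does not follow the spread of the 2 groups compared alone. For retina genes under a few CPM counting error adds to these differences, and its part was not tested.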

Additional observations from a re-analysis of the deposited data

Results flagged for a closer look

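Aplnr, Gpihbp1 and Kit moved in opposite directions in the lung and the retina. Their room air and hyperoxia mice did not overlap in either tissue or genotype. Such a lack of overlap held for 49.8% (WT) and 52.4% (KO) of all tested lung genes. In the retina it held for 24.0% (WT) and 26.2% (KO). The share of genes without overlap in both tissues and with opposite signs was not computed. In WT mice the log2 fold change of hyperoxia over room air was -3.38 in lung and 1.54 in retina for Aplnr, -2.77 and 3.71 for Gpihbp1, and -3.42 and 0.74 for Kit. In KO mice it was -3.06 in lung and 1.01 in retina for Aplnr, -3.09 and 5.08 for Gpihbp1, and -3.11 and 0.55 for Kit. The difference between the tissues was not tested, since their counts were made separately and the oxygen level, days of exposure and time of sampling differ as well, so that tissue and exposure cannot be told apart. Of the retinal values, those of Kit in both genotypes and of Aplnr in KO did not pass the adjusted p. Retinal Gpihbp1 passed the filter on low counts only through the O2 groups, so it could show only a rise.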

How the results depend on the processing

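Over all alternatives run, the members' log2 fold changes gave 1343 values. Of these, 1316 kept their side of the call, 19 lost the call and 8 gained it, and 0 called values changed sign. Sign was not compared where neither value was called, and some of those values changed it. Fibin in WT retinas ran from -0.88 to 0.67 over the alternatives. Kit, Aplnr, Gpihbp1 and Fibin were called lower under all 17 alternatives in WT and in KO lungs. Without a fold threshold 8 members were called in WT lungs, against 4. In WT retinas 2 members (Emcn and Cd93) were called when only the 2 groups compared were fitted and 2 with a term for Y-linked expression, against 4. Leaving out each library in turn gave 2 to 4 members there (2 without WT-RA replicate 1, WT-RA replicate 2 or WT-O2 replicate 1), 1 to 3 in KO retinas, and 0 to 1 in the retina interaction, where Emcn passed without KO-O2 replicate 1 (-0.99). Without TMM factors the mean Lpl level was 11.0 CPM in WT-RA retinas against 12.3, and 13.0 CPM in WT-O2 against 12.3. Over all genes, DESeq2 against edgeR called 31 against 4 in lung KO-O2 against WT-O2, 71 against 23 in KO-RA against WT-RA and 110 against 1 in the interaction, and in the retina 647 against 391, 663 against 420, 174 against 56, 30 against 1 and 569 against 1. With only the groups compared the lung counts were 8 and 10, with the Y-linked term 2, 0 and 0, and without the filter the lung interaction called 2 genes. In the retina KO-RA against WT-RA called 0 genes with only the groups compared. Leaving out 1 library moved the all-gene counts to 1 to 23 (lung KO-O2 against WT-O2), 1 to 109 (lung KO-RA against WT-RA, highest without WT-RA replicate 3), 0 to 45 (lung interaction), 196 to 504 (retina, WT), 151 to 439 (retina, KO), 6 to 83 (retina KO-O2 against WT-O2), 0 to 1 (retina KO-RA against WT-RA) and 0 to 340 (retina interaction). The cause was not tested. No paired analysis was possible because the labels carry no replicate numbers that tie mice across groups. In the retina Fibin and Car4, and Gpihbp1 in room air, rest on few counts. The part of counting error in their wide intervals was not tested.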

Other observations

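Arterial and lymphatic genes gave a further view of the lung vessels. Under hyperoxia in WT lungs Sox17 fell from 147 ± 11.7 to 47.5 ± 5.03 CPM (mean ± SD, n = 3 each), a log2 fold change of -1.63 (SE 0.105, edgeR adjusted p 3.93e-08), and Hey1, a target of Notch signaling, by -1.83 (SE 0.167). Lyve1, a marker of lymphatic endothelium that some macrophages share, rose from 174 ± 70.5 to 501 ± 32.5 CPM (log2 1.52, SE 0.257, adjusted p 0.000769), while Prox1, the defining lymphatic factor, had a log2 fold change of 0.18 (adjusted p 0.433). Selp, P-selectin of activated venous endothelium, rose from 1.58 ± 0.290 to 7.92 ± 1.90 CPM (log2 2.33, SE 0.251). The pericyte gene Cspg4 rose (log2 1.122, SE 0.0914), whereas Pdgfrb was lower at under 2-fold (log2 -0.75, SE 0.119). Erythroid genes summed to 15750 to 18160 CPM in WT-RA and 2921 to 4153 CPM in WT-O2 lungs, and all 8 fell. In KO lungs the sums were 12680 to 26860 CPM in room air and 5971 to 29930 CPM in hyperoxia, and 1 of 8 fell. By edgeR 0 of 8 were called in KO-O2 against WT-O2 and 0 in the interaction. At an unadjusted p under 0.05 stood 8 and 7 of them (6.21% and 6.72% of all genes). What sets these values was not tested.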
